A study of Homo sapiens with 6 samples.

Results

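The ion channel genes described here are those that encode the pore-forming alpha subunits of voltage-gated sodium channels (SCN followed by a number and A), the pore-forming subunits of voltage-gated calcium channels (symbols starting with CACNA1), and potassium channels with their auxiliary subunits (symbols starting with KCN). They were found by gene symbol among probe sets that carry a single symbol. The arrays held 117 such genes of 19775 in all, on 239 probe sets, and 12 of the 117 are long non-coding RNAs that share a channel gene's name. A gene was taken as measured when 1 of its probe sets reached a log2 signal of 5 on at least 2 of the 6 arrays. This left 22 of the 117 genes, against 10459 of 19775 over all genes, and only these 22 were tested.

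RNA came from SKNAS, an established human neuroblastoma cell line, in 3 cultures with 2 Affymetrix expression arrays each. iCSC cells took 2.5 uM 5AdC, a cytidine analogue that traps DNA methyltransferases, for 5 days while attached, and were then grown as spheroids in medium without serum. Sphere cells were grown as spheroids in medium without serum and had no pretreatment, and Monolayer cells were grown attached and untreated, so all 3 groups are the same line. No attached culture with the drug is among them, and Sphere differs from Monolayer in both attachment and medium. The labels leave unsaid whether the 2 arrays of each culture are separate cultures of cells, so every p-value measures array-to-array spread alone, possibly technical, and their number limits the precision. Levels are log2 GCRMA signals, differences are log2 differences with their standard error (SE), and n = 2 arrays per culture throughout.

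Voltage-gated channels open when the membrane depolarises. Sodium channels carry the upstroke of the action potential, calcium channels couple it to secretion and transcription, and potassium channels repolarise the cell, while inward rectifiers and leak channels set the resting potential. In sympathetic neuroblasts and chromaffin cells, the lineage from which neuroblastoma arises, these channels drive catecholamine release. Potassium channels of the KCNH family have been studied in neuroblastoma cells for their part in setting the resting potential and in the cell cycle.

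Of the 22 genes, which this same limit had admitted, more reached it in Sphere than in the other cultures. Both arrays lay at or above log2 5 for 12 of the 22 genes in iCSC, for 17 in Sphere and for 11 in Monolayer, whereas over all tested genes these shares were 92.7%, 93.5% and 90.6%. The highest culture mean was in iCSC for 5 of the 22 genes, in Sphere for 13 and in Monolayer for 4, against 30.5%, 32% and 37.5% of all tested genes. Of the 22, 9 reached the limit in a single culture, which was iCSC for KCNG1, KCNS3 and KCNT2, Sphere for SCN2A, SCN3A, KCNH7, KCNH8 and KCNK3, and Monolayer for KCNN4. Among all tested genes 6.11% reached it in a single culture. Such a gene entered the test through the culture where it is high, so a difference was bound to appear. The counts above and below therefore describe the genes and do not support a direction.

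**Figure D1:**
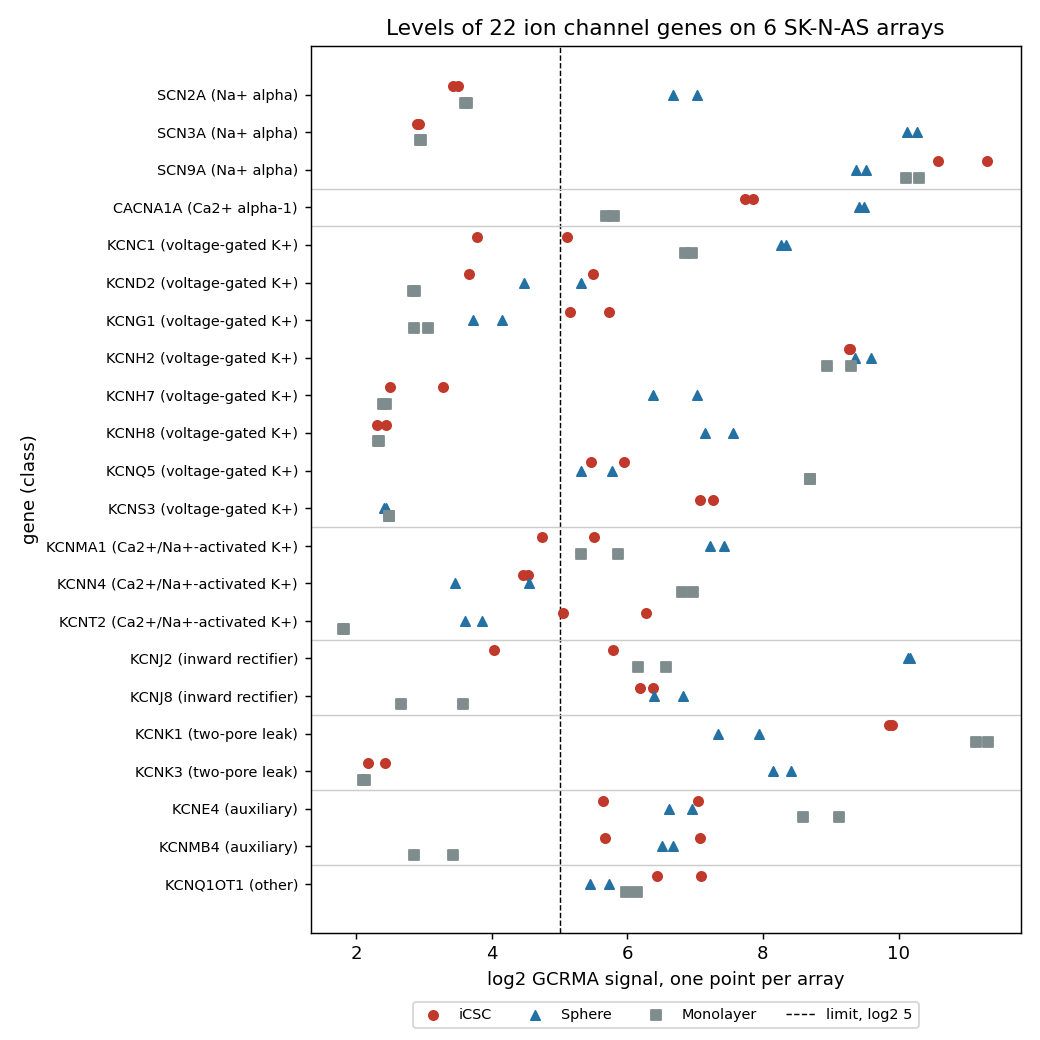
Log2 GCRMA signal (x axis) of the 22 measured channel genes (y axis, grouped by class), with 1 point per array for iCSC, Sphere and Monolayer; the dashed line is the limit of log2 5. SCN2A, SCN3A, KCNH7, KCNH8 and KCNK3 stand right of the limit on the Sphere arrays only, and KCNS3 on the iCSC arrays only.

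Of the 95 genes that were not tested, 71 stayed under log2 3 on every array in the probe set with the highest mean, and 21 peaked between 3 and 5. Near the threshold, KCND2 entered with 5.49 on an iCSC array and 5.31 on a Sphere array. SCN11A (5.94), KCNIP4 (5.47) and KCND1 (5.21) reached the limit on 1 iCSC array each and stayed out, and SCN8A reached it on 1 Sphere array (5.21) in a probe set other than its brightest. Among those that stayed under the limit on all 6 arrays were the neuronal calcium channel CACNA1B, the lymphocyte potassium channel KCNA3 and the sodium channels SCN1A and SCN7A. An unmeasured gene had signals too low to compare, which does not show that it was silent.

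In Sphere against Monolayer, which asks what spheroid culture without serum changed, 14 of the 22 genes rose, 5 fell and 3 did not pass (limma, Benjamini-Hochberg adjusted over 10459 genes). The share called, 86.4%, stands beside 59.0% of all tested genes, of which 30.0% were called higher and 29.1% lower. In iCSC against Sphere, which asks what the earlier drug exposure changed among spheroids, 6 rose, 9 fell and 7 did not pass, a share called of 68.2% against 38.5% (19.3% higher, 19.2% lower). In iCSC against Monolayer 8 rose, 5 fell and 9 did not pass, and that share, 59.1%, is near the 55.6% of all genes (29.0% higher, 26.6% lower). The median log2 difference of the 22 genes was 1.83, -0.32 and 0.17 in these comparisons, and that of all tested genes was 0.01, 0.01 and 0.02. With signals under 5 raised to 5 the medians were 0.88, -0.27 and 0, and those of all tested genes 0, 0.00305 and 0.00032. Each culture enters 2 of the comparisons.

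The arrays did not overlap for 22, 17 and 19 of the 22 genes in these comparisons, beside 84.2%, 69.4% and 79.8% of all tested genes. With signals under 5 raised to 5, 11 genes were called and at least 2-fold higher and 4 lower in Sphere against Monolayer, beside 14.7% and 11.8%. In iCSC against Sphere these were 4 higher and 9 lower, beside 6.43% and 8.33%, and in iCSC against Monolayer 4 higher and 5 lower, beside 12.5% and 10.3%. Calls without overlap and of at least 4-fold numbered 8, 8 and 4, beside 10.6%, 5.90% and 8.16%.

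The 10 channel genes with an array at the limit in every culture moved in both directions. In Sphere against Monolayer CACNA1A, KCNC1, KCNJ2 and KCNMA1 rose, KCNE4, KCNK1, KCNQ5 and SCN9A fell, and 2 did not pass, beside 55.6% called among the 9140 genes that met the same condition. In iCSC against Sphere KCNK1, SCN9A and KCNQ1OT1 rose and CACNA1A, KCNC1, KCNJ2 and KCNMA1 fell (background 34.5%). In iCSC against Monolayer CACNA1A and SCN9A rose and KCNC1, KCNE4, KCNK1 and KCNQ5 fell (background 52.6%).

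**Figure D2:**
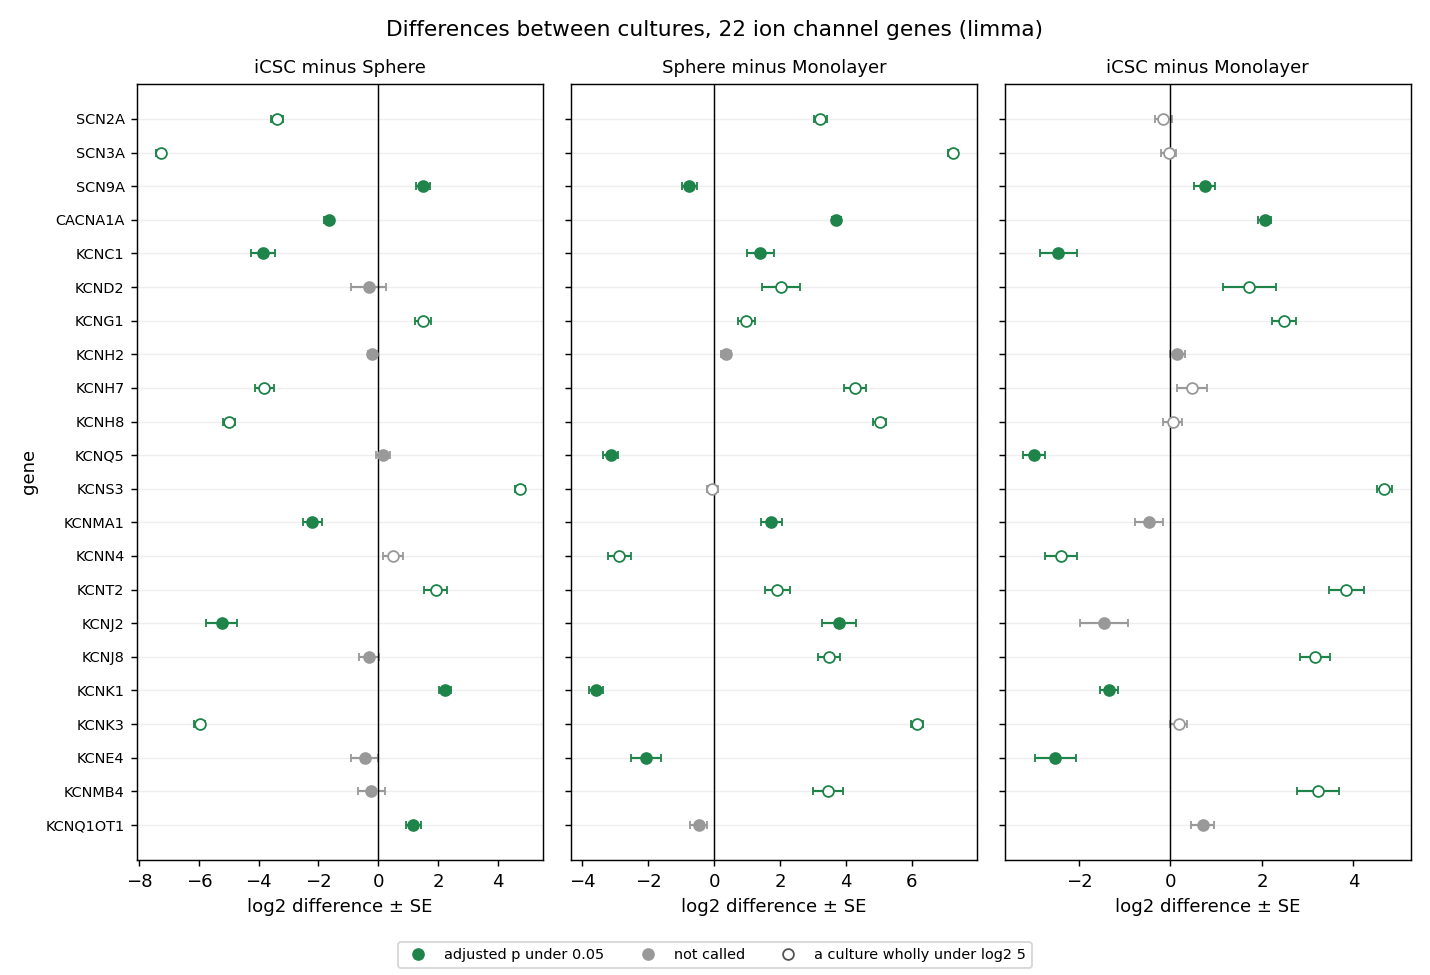
Log2 difference between cultures with its SE (x axis) for the 22 channel genes (y axis) in 3 comparisons; green marks an adjusted p under 0.05 and open circles mark genes for which a compared culture lay wholly under log2 5. Several genes right of 0 in Sphere minus Monolayer, such as SCN3A at 7.25 and KCNK3 at 6.16, stand left of 0 in iCSC minus Sphere, at -7.29 and -5.98.

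Sodium channel alpha subunits were measured for 3 of 9 genes, and they did not move together. SCN3A, a sodium channel of embryonic and injured neurons, had signals of 2.90 and 2.92 in iCSC, 10.27 and 10.12 in Sphere, and 2.94 and 2.95 in Monolayer. Both Sphere arrays stood far above the other 4, which were under the limit. A second SCN3A probe set did not show this order, with 2.39 and 2.36 in iCSC, 2.37 and 2.41 in Sphere, and 2.39 on both Monolayer arrays, all under the limit. Among the 52 probe sets of the 22 measured genes, 24 did not pass, and 23 of these were under the limit on all arrays. Where all arrays of a culture are under log2 5, the fold change is given as a lower bound, computed after raising lower signals to 5, while the p-value comes from the deposited signals. SCN3A was at least 36.7-fold higher in Sphere than in Monolayer (limma, adjusted p = 6.55e-07) and at least 36.7-fold lower in iCSC than in Sphere (adjusted p = 2.03e-06). In bulk RNA such a difference does not tell fewer cells with the transcript from less of it per cell.

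SCN2A, a main sodium channel of central axons, followed the same order. Its signals were 3.43 and 3.50 in iCSC, 7.03 and 6.68 in Sphere, and 3.64 and 3.61 in Monolayer, so that the Sphere arrays were again the only measured ones. SCN2A was at least 3.61-fold higher in Sphere than in Monolayer (limma, adjusted p = 2.14e-05) and at least 3.61-fold lower in iCSC than in Sphere (adjusted p = 3.82e-05). A second SCN2A probe set gave 2.40 and 2.69 in iCSC, 8.23 and 7.43 in Sphere, and at most 3.09 in Monolayer, with only the Sphere arrays above the limit.

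SCN9A, the sodium channel of sympathetic and pain-sensing neurons, was measured on all 6 arrays. Its signals were 11.31 and 10.58 in iCSC, 9.37 and 9.53 in Sphere, and 10.11 and 10.29 in Monolayer, without overlap between any 2 cultures. It rose 2.83-fold in iCSC against Sphere (limma, SE 0.23 on the log2 scale, adjusted p = 0.00324; 17 alternatives gave 0.000448 to 0.0655, the highest without variance moderation, which ended the call), with a log2 difference of 1.19 ± 0.11 in its other probe set (adjusted p = 0.000449). In Sphere against Monolayer it fell by 0.75 ± 0.23 (adjusted p = 0.0291; 17 alternatives gave 0.00204 to 0.155). That call was lost when an array was left out, be it the first (0.0895) or the other (0.155) of Monolayer or the first (0.146) or the other (0.0850) of Sphere, while the other probe set gave -1.23 ± 0.11 (adjusted p = 0.000175). In iCSC against Monolayer the difference was 0.75 ± 0.23 (adjusted p = 0.0321, range 0.00181 to 0.170). It was lost on leaving out the first (0.170) or the other (0.0952) Monolayer array, the first (0.0644) or the other (0.0643) Sphere array, or the first iCSC array (0.0612), and the other probe set gave -0.04 ± 0.11 (adjusted p = 0.793).

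SCN3A, SCN2A, SCN1A, SCN9A and SCN7A lie in this order in 1 cluster on chromosome 2, per RefSeq GRCh38.p14, with KCNH7 a few genes away. The Sphere signal was not shared by the whole cluster. SCN1A and SCN7A stayed under log2 3 on all arrays and SCN9A had its lowest mean in Sphere. Among the neighbours, 2 were picked after their values were seen. CSRNP3, next to SCN2A, averaged 8.96 in iCSC, 10.54 in Sphere and 3.74 in Monolayer, and COBLL1, on the other side of SCN3A, averaged 3.13, 2.55 and 7.26 in the same order.

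**Figure D3:**
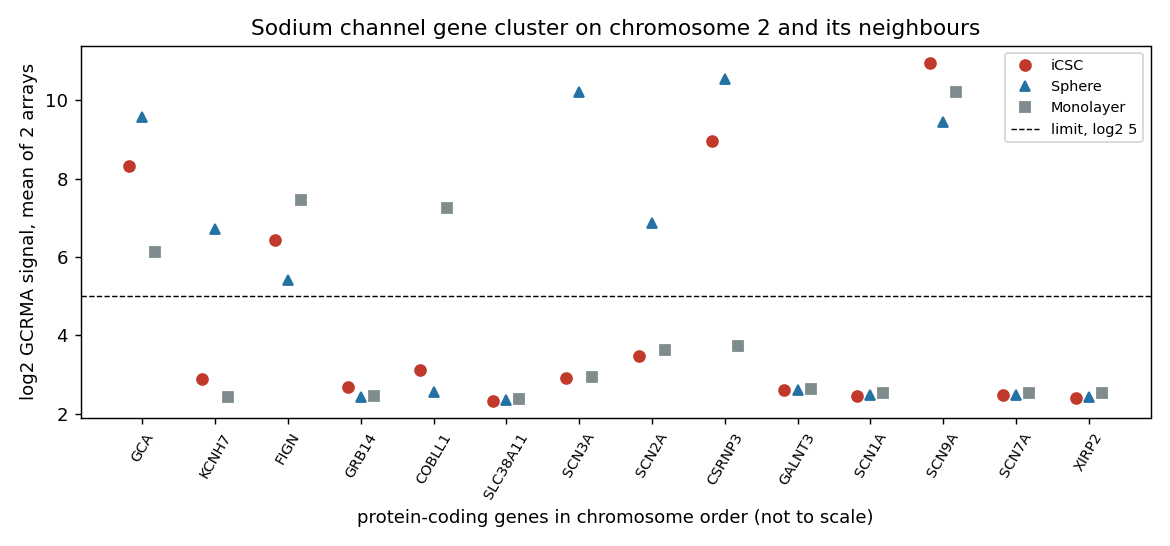
Mean log2 GCRMA signal over 2 arrays (y axis) of the protein-coding genes on the arrays between GCA and XIRP2, in chromosome order and not to scale (x axis), for iCSC, Sphere and Monolayer. KCNH7, SCN3A and SCN2A exceed log2 5 only in Sphere, whereas SCN1A and SCN7A are under it in all cultures and SCN9A above 9 in all.

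Among 10 calcium channel genes only CACNA1A was measured. It encodes the pore of the P/Q-type channel, which triggers transmitter release at many synapses. Its signals were 7.74 and 7.85 in iCSC, 9.41 and 9.49 in Sphere, and 5.80 and 5.68 in Monolayer. The cultures formed 3 separate steps, all above the limit. The other CACNA1A probe sets stayed under the limit on all arrays. CACNA1A rose by 3.71 ± 0.14 in Sphere against Monolayer (limma, adjusted p = 3.79e-06) and by 2.06 ± 0.14 in iCSC against Monolayer (adjusted p = 6.43e-05), and it fell by 1.66 ± 0.14 in iCSC against Sphere (adjusted p = 0.000267).

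The class of voltage-gated potassium channel alpha subunits held 35 genes, of which 8 were measured. In Sphere against Monolayer 5 of them rose and 1 fell, beside 59.0% of all tested genes called, and the 5 include KCNG1, for which all 4 arrays lay under the limit. In iCSC against Sphere 2 rose and 3 fell, beside 38.5%. The ether-a-go-go family was represented by 3 genes. KCNH8 had signals of 2.31 and 2.44 in iCSC, 7.15 and 7.56 in Sphere, and 2.32 and 2.33 in Monolayer, which made it at least 5.11-fold higher in Sphere than in Monolayer (limma, adjusted p = 4.07e-06) and at least 5.11-fold lower in iCSC than in Sphere (adjusted p = 9.96e-06). KCNH7 gave 2.50 and 3.28 in iCSC, 6.38 and 7.03 in Sphere, and 2.40 and 2.45 in Monolayer, at least 3.26-fold higher in Sphere than in Monolayer (adjusted p = 7.13e-05) and at least 3.26-fold lower in iCSC than in Sphere (adjusted p = 0.000247). For both genes only the Sphere arrays exceeded the limit. A second KCNH7 probe set stayed under it on all arrays, with 2.52 and 3.23 in Sphere.

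KCNH2, the hERG channel, was present in every culture, and its probe sets disagreed. The brighter one gave 9.26 and 9.28 in iCSC, 9.36 and 9.59 in Sphere, and 9.30 and 8.94 in Monolayer, and it passed in no comparison. The other gave 7.99 and 7.55 in iCSC, 8.13 and 8.32 in Sphere, and 6.16 and 5.71 in Monolayer, with both Monolayer arrays below the rest. It rose by 2.29 ± 0.23 in Sphere against Monolayer (limma, adjusted p = 0.000263) and by 1.84 ± 0.23 in iCSC against Monolayer (adjusted p = 0.000814), when every passing probe set was fitted. Which of its transcripts each probe set reads was not analysed here.

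KCNS3 was the potassium channel gene measured in iCSC alone with the highest bound. It encodes a silent subunit that forms no channel by itself and alters the gating of the subunits it joins. Its signals were 7.06 and 7.26 in iCSC, 2.41 and 2.44 in Sphere, and 2.49 on both Monolayer arrays. The lower bound for iCSC was 4.47-fold above Sphere (limma, adjusted p = 6.49e-06) and 4.47-fold above Monolayer (adjusted p = 4.01e-06), so KCNS3 was at least 4.47-fold higher in either comparison. KCNG1, another silent subunit, stood just above the limit at 5.73 and 5.15 in iCSC and under it at 4.16 and 3.72 in Sphere and at 3.07 and 2.86 in Monolayer. Against Sphere the iCSC signal was at least 1.36-fold higher (limma, adjusted p = 0.00550, 0.00264 to 0.131 over 16 alternatives), and raising lower signals to 5 (0.131) or dropping the variance moderation (0.0633) ended this call. The KCNG1 difference between Sphere and Monolayer was called (adjusted p = 0.0180, range 0.00570 to 1) on values that all lay under the limit, and no fold is given. It was lost without the first (0.0524) or the other (0.0896) Monolayer array or the first Sphere array (0.0867).

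KCNC1, which allows fast repolarisation in fast-firing neurons, had signals of 3.78 and 5.11 in iCSC, 8.34 and 8.26 in Sphere, and 6.95 and 6.85 in Monolayer. The iCSC arrays were the lowest and differed most from each other, with 1 of them under the limit. KCNC1 fell by 3.86 ± 0.40 in iCSC against Sphere (limma, adjusted p = 0.000602) and by 2.45 ± 0.40 in iCSC against Monolayer (adjusted p = 0.00257; 17 alternatives gave 0.000141 to 0.0514). The last call was lost without variance moderation (0.0514). It was 1.41 ± 0.40 higher in Sphere than in Monolayer (adjusted p = 0.0225; 17 alternatives gave 0.000316 to 0.131). That call was lost when an array was left out, be it the first (0.0958) or the other (0.111) of Monolayer or the first (0.109) or the other (0.0894) of Sphere. A second probe set, between 4.86 and 5.20 on all arrays, passed in no comparison.

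KCNQ5, a subunit of the M-current that damps repeated firing, was highest in Monolayer. Its signals were 5.95 and 5.46 in iCSC, 5.77 and 5.32 in Sphere, and 8.70 and 8.69 in Monolayer. The iCSC and Sphere arrays overlapped, and both lay below Monolayer. It fell by 3.15 ± 0.24 in Sphere against Monolayer (limma, adjusted p = 7.06e-05) and by 2.99 ± 0.24 in iCSC against Monolayer (adjusted p = 0.000117). KCND2, an A-type channel of dendrites, reached the limit on 1 iCSC and 1 Sphere array (5.49 and 3.67 in iCSC, 5.31 and 4.48 in Sphere, 2.84 and 2.87 in Monolayer). Its difference between Sphere and Monolayer (adjusted p = 0.0225, range 0.00198 to 0.541) was lost without the first (0.105) or the other (0.100) Monolayer array or the first Sphere array (0.138), and that between iCSC and Monolayer (adjusted p = 0.0433, range 0.00256 to 0.336) under 10 of 16 alternatives, among them each array left out in turn except iCSC replicate 2.

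Of 7 genes for potassium channels opened by calcium or sodium ions, 3 were measured, and each had another pattern. KCNMA1, the large-conductance BK channel, had signals of 5.50 and 4.74 in iCSC, 7.22 and 7.43 in Sphere, and 5.86 and 5.32 in Monolayer. The Sphere arrays were highest, while those of iCSC and Monolayer overlapped. KCNMA1 rose by 1.74 ± 0.31 in Sphere against Monolayer (limma, adjusted p = 0.00328) and fell by 2.20 ± 0.31 in iCSC against Sphere (adjusted p = 0.00223; 16 alternatives gave 0.00152 to 0.0509). Without variance moderation the second call was lost (0.0509). Its other 3 probe sets stayed under the limit on all arrays.

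KCNN4, an intermediate-conductance channel of non-excitable cells, was measured in Monolayer alone, at 6.81 and 6.97, against 4.53 and 4.46 in iCSC and 3.47 and 4.54 in Sphere. It was at least 3.70-fold lower in Sphere than in Monolayer (limma, adjusted p = 0.000549) and at least 3.70-fold lower in iCSC than in Monolayer (adjusted p = 0.00144). KCNT2, a channel opened by sodium ions, was at 6.27 and 5.05 in iCSC, 3.85 and 3.61 in Sphere, and 1.81 and 1.82 in Monolayer, and only the iCSC arrays reached the limit. Against Sphere the iCSC signal was at least 1.58-fold higher (adjusted p = 0.00905, 0.000300 to 0.214 over 16 alternatives), and the call ended when lower signals were raised to 5 (0.214), Sphere replicate 2 was left out (0.0603) or the variance was not moderated (0.0951). KCNT2 was also called between Sphere and Monolayer (adjusted p = 0.00534, 9.09e-05 to 1 over 16 alternatives), with all 4 arrays under the limit, and no fold is given.

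Inward rectifiers pass potassium more readily into the cell than out of it, and 2 of 13 were measured. KCNJ2, which stabilises the resting potential, had signals of 5.79 and 4.03 in iCSC, 10.15 and 10.17 in Sphere, and 6.57 and 6.16 in Monolayer. Both Sphere arrays stood above all others, and 1 iCSC array was under the limit. KCNJ2 rose by 3.80 ± 0.52 in Sphere against Monolayer (limma, adjusted p = 0.00106) and fell by 5.25 ± 0.52 in iCSC against Sphere (adjusted p = 0.000503). In iCSC against Monolayer the difference of -1.45 ± 0.52 did not pass (adjusted p = 0.0538; 17 alternatives gave 0.000979 to 0.232). It passed under 6 of these, which were the fit without iCSC replicate 1 (0.000979), the replicate number as a block (0.0254), signals under 5 raised to 5 (0.0306), renewed quantile normalization (0.0376), centred array medians (0.0420) and a filter at log2 7 (0.0455).

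KCNJ8, the pore of an ATP-sensitive potassium channel, behaved otherwise. Its signals were 6.19 and 6.38 in iCSC, 6.82 and 6.39 in Sphere, and 2.66 and 3.58 in Monolayer, so that both spheroid cultures were measured and Monolayer was not. It was at least 3.04-fold higher in Sphere than in Monolayer (limma, adjusted p = 0.000195) and in iCSC by at least 2.44-fold (adjusted p = 0.000375), while iCSC and Sphere differed by -0.32 ± 0.33 (adjusted p = 0.490). ABCC8 and ABCC9, the sulfonylurea receptors with which this pore assembles, were under the limit on all 6 arrays.

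Tandem-pore channels carry the background potassium leak, and the 2 measured of 14 ran in opposite directions. KCNK3, an acid-sensitive leak channel, had signals of 2.17 and 2.43 in iCSC, 8.41 and 8.15 in Sphere, and 2.11 and 2.13 in Monolayer. Only the Sphere arrays were above the limit. The other KCNK3 probe sets stayed under it on all arrays. KCNK3 was at least 9.71-fold higher in Sphere than in Monolayer (limma, adjusted p = 1.47e-06) and at least 9.71-fold lower in iCSC than in Sphere (adjusted p = 3.89e-06).

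KCNK1, a weakly conducting member of the family, gave 9.90 and 9.86 in iCSC, 7.33 and 7.95 in Sphere, and 11.32 and 11.13 in Monolayer, with no overlap between cultures. It fell by 3.59 ± 0.20 in Sphere against Monolayer (limma, adjusted p = 1.91e-05), rose by 2.24 ± 0.20 in iCSC against Sphere (adjusted p = 0.000339) and fell by 1.35 ± 0.20 in iCSC against Monolayer (adjusted p = 0.00182). A second probe set was called in the same direction in all 3 comparisons, by -4.56 ± 0.36, 3.05 ± 0.36 and -1.51 ± 0.36.

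Auxiliary potassium channel subunits were measured for 2 of 16 genes. KCNMB4, the neuronal beta subunit of the BK channel, had signals of 7.06 and 5.67 in iCSC, 6.68 and 6.51 in Sphere, and 3.43 and 2.85 in Monolayer. The iCSC and Sphere arrays overlapped, and both were above Monolayer, by at least 3.01-fold in Sphere (limma, adjusted p = 0.000856) and at least 2.58-fold in iCSC (adjusted p = 0.00134). KCNE4, a subunit that inhibits several voltage-gated potassium channels, gave 5.64 and 7.04 in iCSC, 6.62 and 6.96 in Sphere, and 9.12 and 8.59 in Monolayer. It fell by 2.07 ± 0.45 in Sphere against Monolayer (adjusted p = 0.00746; 17 alternatives gave 0.000981 to 0.0827) and by 2.52 ± 0.45 in iCSC against Monolayer (adjusted p = 0.00369; 17 alternatives gave 0.000745 to 0.0621). The Sphere call was lost without Monolayer replicate 1 (0.0655) or Sphere replicate 1 (0.0606), and without variance moderation both the Sphere (0.0827) and the iCSC call (0.0621) were lost.

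Of the 13 symbols that fit none of these classes, KCNQ1OT1 was measured. It is an imprinted RNA transcribed antisense from within KCNQ1, a gene under the limit on all 6 arrays. KCNQ1OT1 had signals of 7.09 and 6.44 in iCSC, 5.46 and 5.72 in Sphere, and 5.97 and 6.14 in Monolayer. It rose by 1.18 ± 0.25 in iCSC against Sphere (limma, adjusted p = 0.0123; 16 alternatives gave 0.00489 to 0.0873), and leaving out Sphere replicate 1 (0.0797) or the variance moderation (0.0873) ended the call. Only 1 of its 5 probe sets passed the limit.

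Genes outside the 117 that act on these channels were read from 6 lists. Of 18 calcium channel accessory genes on the arrays 7 were tested, and in Sphere against Monolayer 5 rose and none fell (30.0% and 29.1% of all genes), while in iCSC against Sphere 1 rose and 3 fell (19.3% and 19.2%). CACNA2D2, an extracellular subunit that brings calcium channels to the surface, had signals of 7.81 and 7.87 in iCSC, 11.41 and 10.87 in Sphere, and 3.59 and 4.87 in Monolayer. CACNA2D2 was at least 70.5-fold higher in Sphere than in Monolayer (limma, adjusted p = 2.32e-05) and fell by 3.30 ± 0.41 in iCSC against Sphere (adjusted p = 0.00129). Its arrays formed 3 separate steps, with Monolayer under the limit. CACNA2D1, its paralogue, rose by 5.80 ± 0.19 in Sphere against Monolayer (adjusted p = 1.94e-06), and STAC, an adaptor of L-type calcium channels, rose by 4.11 ± 0.37 (adjusted p = 0.000166) and fell by 4.67 ± 0.37 in iCSC against Sphere (adjusted p = 0.000192). No L-type pore gene was measured, since the P/Q-type CACNA1A was the only calcium channel gene that passed the limit.

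Among 13 potassium channel partners on the arrays 7 were tested, with 3 higher and 2 lower in Sphere than in Monolayer (30.0% and 29.1% of all genes), and 3 higher and 3 lower in iCSC than in Sphere (19.3% and 19.2%). LRRC55, a gamma subunit of the BK channel, had signals of 2.45 and 2.47 in iCSC, 9.91 and 10.02 in Sphere, and 2.50 and 2.54 in Monolayer. LRRC55 was at least 31.2-fold higher in Sphere than in Monolayer (limma, adjusted p = 6.05e-07) and at least 31.2-fold lower in iCSC than in Sphere (adjusted p = 2.03e-06). The Sphere arrays were thus the only ones where LRRC55 was measured, and those where KCNMA1 was highest. CNTNAP2, which clusters potassium channels on axons, rose by 2.53 ± 0.32 in iCSC against Sphere (adjusted p = 0.00145), with 1 Sphere array under the limit. LGI1, a secreted protein of potassium channel complexes, was at least 3.16-fold higher in Sphere than in Monolayer (adjusted p = 1.10e-05).

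Of 13 sodium channel beta subunits and modulators 3 were tested, of which 2 rose and 1 fell in Sphere against Monolayer (30.0% and 29.1% of all genes) and 2 rose and 1 fell in iCSC against Sphere (19.3% and 19.2%). They include 2 ankyrins, which anchor channels to the membrane skeleton. ANK2 had signals of 10.92 and 10.70 in iCSC, 9.63 and 9.59 in Sphere, and 4.79 and 4.92 in Monolayer, at least 24.4-fold higher in Sphere than in Monolayer (limma, adjusted p = 1.25e-06). ANK3 fell by 1.82 ± 0.13 in Sphere against Monolayer (adjusted p = 5.21e-05) and rose by 1.84 ± 0.13 in iCSC against Sphere (adjusted p = 0.000107). Among 8 tested of 12 other voltage-gated channels, 6 rose and none fell in Sphere against Monolayer (30.0% and 29.1% of all genes), led by the endosomal chloride transporter CLCN5 (2.77 ± 0.21, adjusted p = 6.42e-05). In iCSC against Sphere 2 of these 8 fell and none rose, against 19.2% and 19.3% of all genes.

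The sodium-potassium pump list had 4 tested genes of 10, of which 1 rose and 3 fell in Sphere against Monolayer (30.0% and 29.1% of all genes). FXYD5 and FXYD6, small regulators of the pump, moved in opposite directions there, and the other 5 FXYD genes on the arrays were under the limit. FXYD6 had signals of 10.50 and 9.75 in iCSC, 9.87 and 9.65 in Sphere, and 4.76 and 4.65 in Monolayer, at least 27.2-fold higher in Sphere than in Monolayer (limma, adjusted p = 1.11e-05). FXYD5 had 6.12 and 6.58 in iCSC, 3.97 and 4.39 in Sphere, and 10.61 and 10.26 in Monolayer, at least 43.3-fold lower in Sphere than in Monolayer (adjusted p = 4.06e-06).

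REST, a repressor that binds the regulatory sequence of many neuronal genes, sodium channels among them, was lowest in Sphere. Its signals were 8.25 and 7.30 in iCSC, 6.20 and 6.22 in Sphere, and 7.69 and 7.88 in Monolayer, and the Sphere arrays lay below all others. REST fell by 1.58 ± 0.31 in Sphere against Monolayer (limma, adjusted p = 0.00459; 17 alternatives gave 0.000540 to 0.0587), a difference that did not pass without variance moderation (0.0587). It rose by 1.57 ± 0.31 in iCSC against Sphere (adjusted p = 0.00816; 17 alternatives gave 0.00101 to 0.0876), and leaving out the first (0.0575) or the other (0.0541) Sphere array, or the variance moderation (0.0876), ended the call. In iCSC against Monolayer the difference was -0.01 ± 0.31 (adjusted p = 0.989). Of the 15 tested genes of REST and its corepressors, 6 rose and 1 fell in Sphere against Monolayer, a smaller share called than the 59.0% of all tested genes. CTDSP1, a phosphatase that acts on REST, was among the 6 and rose by 1.62 ± 0.16 (adjusted p = 0.000228). In iCSC against Sphere 4 of the 15 rose and 1 fell, beside 38.5% called among all genes.

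**Figure D4:**
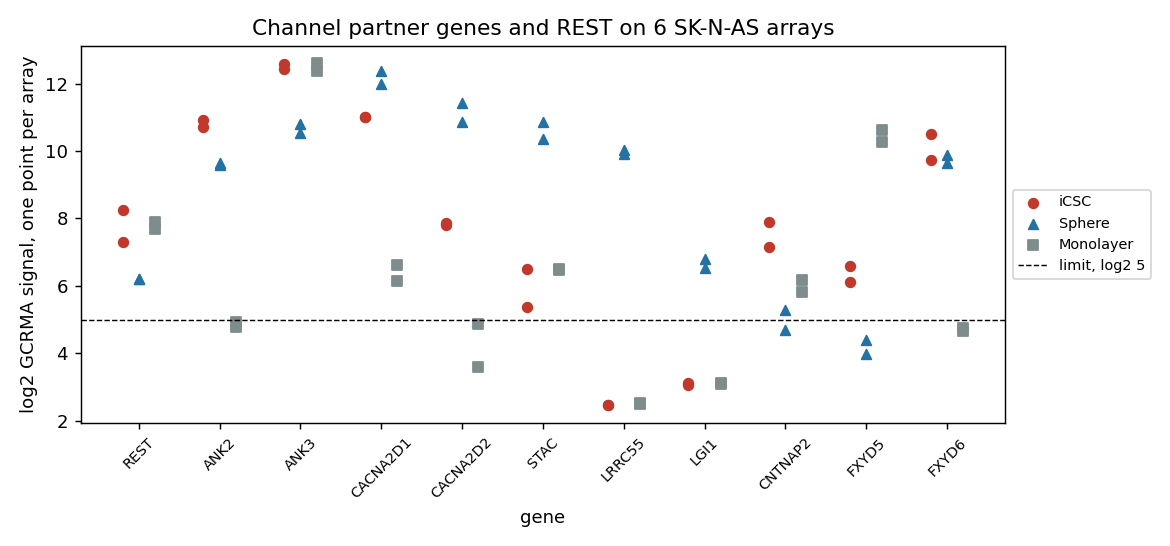
Log2 GCRMA signal (y axis) of channel partner genes and REST (x axis), with 1 point per array for iCSC, Sphere and Monolayer; the dashed line is the limit of log2 5. LRRC55 and LGI1 exceed the limit only in Sphere, REST is lowest in Sphere, and FXYD6 is higher and FXYD5 lower in Sphere than in Monolayer.

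Promoter sequences were read from RefSeq (GRCh38.p14) for 91 of the 117 genes, 16 of them among the 22 measured. Each window of 300 bases runs from 250 bases before a gene's start to shortly after it, and its CpG dinucleotides are the bases that DNA methyltransferases modify. Methylation was not measured here. The windows of the 16 measured genes held a median of 26 CpG (range 2 to 54), those of the 75 others held 10, and those of 8665 tested genes held 27. The arms of the REST recognition sequence, TTCAGCACC and GGACAG, were searched on both strands. The first was found in 1 of the 16 windows, that of KCNK3, against 0.289% of the windows of all tested genes, and in 1 of the 75 others, that of KCNH6, a gene under the limit on all 6 arrays. GGACAG was found in 4 of the 16, against 19.6%. Neither arm was found in the windows of SCN2A, KCNH8, CACNA1A, KCNC1, KCNJ2 and KCNMA1. Like KCNK3, these genes were called higher in Sphere than in Monolayer and lower in iCSC than in Sphere. SCN3A and KCNH7, called in the same directions, had no window. A match describes letters and does not show a bound site. Only these windows were searched for these letters, so a window without a match does not show that the gene lacks a site. Whether REST acts on any of these genes was not tested.

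The 250 bases before the start are shown for KCNK3, in which capitals mark both arms. Its TTCAGCACC lies on the reverse strand, as GGTGCTGAA 31 bases before the start, GGACAG follows on the forward strand 21 bases before it, and a further GGACAG lies on the reverse strand 211 bases before it. The adjacent pair thus lies on opposite strands. The arms were searched singly, and their joint arrangement as a recognition sequence was not tested.
KCNK3, chr2:26692472-26692721, forward strand: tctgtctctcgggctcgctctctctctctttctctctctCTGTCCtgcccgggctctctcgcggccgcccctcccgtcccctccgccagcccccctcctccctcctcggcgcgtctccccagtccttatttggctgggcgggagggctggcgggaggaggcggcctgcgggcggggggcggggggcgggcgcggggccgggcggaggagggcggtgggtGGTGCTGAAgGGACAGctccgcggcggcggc

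The same stretch is shown for KCNH8 and SCN2A, measured in Sphere alone, and for KCNS3, measured in iCSC alone, because they differ in CpG content. Capitals mark CpG, of which KCNH8 has 30, SCN2A 1 and KCNS3 14 in these 250 bases.
KCNH8, chr3:19148260-19148509, forward strand: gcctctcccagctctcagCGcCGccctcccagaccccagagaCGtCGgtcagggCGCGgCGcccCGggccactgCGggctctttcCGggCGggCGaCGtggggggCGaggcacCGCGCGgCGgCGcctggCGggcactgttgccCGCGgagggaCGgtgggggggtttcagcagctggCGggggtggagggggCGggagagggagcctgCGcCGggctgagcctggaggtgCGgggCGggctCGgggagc
SCN2A, chr2:165239164-165239413, forward strand: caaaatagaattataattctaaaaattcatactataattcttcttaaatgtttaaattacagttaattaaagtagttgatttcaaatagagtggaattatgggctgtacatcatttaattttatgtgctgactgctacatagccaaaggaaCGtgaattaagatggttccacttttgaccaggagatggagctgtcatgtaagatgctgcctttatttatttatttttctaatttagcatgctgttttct
KCNS3, chr2:17877597-17877846, forward strand: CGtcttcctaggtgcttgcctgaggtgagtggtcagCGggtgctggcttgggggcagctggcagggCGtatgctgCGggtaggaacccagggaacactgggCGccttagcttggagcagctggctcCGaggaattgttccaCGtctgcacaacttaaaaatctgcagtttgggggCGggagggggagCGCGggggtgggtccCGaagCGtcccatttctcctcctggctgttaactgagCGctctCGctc

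Markers of the lineage and of other cell types were read beside the channel genes. Over 10 sympathoadrenal markers on the arrays the mean log2 signal per array was 6.55 and 6.94 in iCSC, 9.17 and 9.62 in Sphere, and 4.74 and 4.86 in Monolayer. Of 9 tested, 8 rose in Sphere against Monolayer, beside 30.0% of all tested genes called higher and 29.1% lower. In iCSC against Sphere 8 fell, beside 19.3% higher and 19.2% lower. In iCSC against Monolayer 5 rose and 2 fell, beside 29.0% higher and 26.6% lower. In that last comparison 8 of the 22 channel genes rose, 5 fell and 9 did not pass. Those 9 include SCN3A (limma, adjusted p = 0.876), SCN2A (0.511), KCNK3 (0.456), KCNH8 (0.873) and KCNH7 (0.266). These 5 entered the test through Sphere alone and were under the limit in both cultures compared. Their not being called was therefore nearly fixed in advance, and nothing is drawn from it. DBH, a defining enzyme of noradrenergic cells, was under the limit on all 6 arrays. Of 10 mesenchymal neuroblastoma markers 9 were tested, and 7 fell and 2 rose in Sphere against Monolayer, while 5 rose and 2 fell in iCSC against Sphere, and 2 rose and 4 fell in iCSC against Monolayer. Among 7 leukocyte markers only PTPRC was tested, averaging 2.86 in iCSC, 12.47 in Sphere and 11.74 in Monolayer. Of 4 skeletal muscle markers only DES was tested, averaging 5.86 in iCSC, 3.31 in Sphere and 1.92 in Monolayer, higher in iCSC by at least 1.82-fold against Sphere (limma, adjusted p = 0.000888) and against Monolayer (adjusted p = 8.19e-05). Of 4 endothelial markers only PECAM1 was tested, averaging 3.74 in iCSC, 5.59 in Sphere and 2.98 in Monolayer, higher in Sphere than in Monolayer (adjusted p = 4.27e-05) and lower in iCSC than in Sphere (adjusted p = 0.000427). The other muscle, endothelial and leukocyte markers on the arrays, and all glial and epithelial ones, were under the limit on all arrays. The 3' minus 5' signal of the ACTB control probe sets, a sign of RNA integrity, was 1.40 to 1.47 in iCSC, 1.21 to 1.22 in Sphere and 1.16 to 1.25 in Monolayer. The part of these differences in the channel results was not tested.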

How the data were processed

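The authors' deposited values are log2 signals of 54675 probe sets on each of 6 arrays. Per the submitters' processing notes they were made with GCRMA, and Partek is also named; neither versions nor settings are stated there. Per the labels' protocols, 200 ng of kit-purified total RNA were amplified into biotin-labelled RNA. GCRMA holds unexpressed probe sets in a narrow low band, so log2 differences that start there overstate what was measured.

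Probe sets were named through the platform annotation, and 41091 carried 1 gene symbol. Symbols were updated by Entrez identifier against RefSeq GRCh38.p14, which matched 41037. Another 5 probe sets carried a channel symbol beside another gene's or copy's and stayed out, and none of them passed the limit. A probe set entered at log2 5 or more on at least 2 arrays, and the one with the highest mean over 6 arrays stood for its gene. The cultures were fitted together with limma 3.58.1 in R 4.3.3 (1 mean per culture, no covariate, variance trend), with two-sided tests adjusted by Benjamini-Hochberg over 10459 genes and called at an adjusted p under 0.05. The fit was also run on simulated arrays with far fewer changed genes than were called here, and no conclusion is drawn from that run. Figures were drawn with matplotlib 3.10.9.

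Every array value was given for genes that were called, did not overlap and changed at least 4-fold with values under 5 set to 5, and also for other measured members. REST, ABCC8 and ABCC9 were named whatever their values, and from the lists only genes among the 4 largest called changes in a comparison. The planned protein stretches were not used here. Members and lists were chosen with earlier results of these data known.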

Additional observations from a re-analysis of the deposited data

How the results depend on the processing

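Each count of called channel genes was recomputed under 18 alternatives. The counts of 14 higher and 5 lower in Sphere against Monolayer ranged over 11 to 14 and 3 to 5 when arrays were left out in turn, 6 higher and 9 lower in iCSC against Sphere over 5 to 6 and 9 to 10, and 8 higher and 5 lower in iCSC against Monolayer over 6 to 9 and 5 to 6. The 3 lower calls in Sphere against Monolayer arose without Monolayer replicate 1 and without Sphere replicate 1. A filter at log2 7, which tests fewer genes, left 8 higher in Sphere against Monolayer, 3 higher in iCSC against Sphere and 3 higher in iCSC against Monolayer. Without variance moderation 3 were lower in Sphere against Monolayer, 2 higher in iCSC against Sphere and 3 lower in iCSC against Monolayer. With no filter, which tests more genes, 14 were lower in iCSC against Sphere. Another alternative dropped probe sets with names ending in x_at or s_at, and with them genes such as SCN3A that had no other passing one. It left 7 lower in iCSC against Sphere and 11 higher in Sphere against Monolayer. At least 2-fold changes with values under 5 set to 5 left 4 higher in iCSC against Monolayer. The labels do not say that equal replicate numbers share a batch, and deviations of same-numbered arrays correlated at 0.173, -0.053 and 0.019 over genes; the fit with the replicate number as a block gave 14 and 5, 6 and 9, and 8 and 6 higher and lower calls in these comparisons. Of 47 calls on single channel genes, 30 stayed called under each of these alternatives that could be run on them, other probe sets aside, and 17 were lost under at least 1. None changed direction except that SCN9A in iCSC against Monolayer was -0.04 in its other probe set, an alternative chosen after seeing the data that also ended the 3 calls of KCNC1. Arrays under log2 5 limit every fold given as a bound.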
